A study of Mus musculus with 3 samples.

Results

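Isl1 peaks were described at 60 genes of the Wnt pathway, chosen by name as 21 ligands, 16 receptors, 9 inhibitors and 14 intracellular effectors, out of 21887 protein-coding genes. Together they were assigned 80 of the 14082 distinct peaks in the list. Isl1 marks progenitors of the second heart field, where it binds DNA through its homeodomain, and its occupancy was mapped by ChIP-Seq, which recovers and sequences the DNA held by a protein. The cells studied were cardiac progenitors (CPCs) obtained at day 5 by directed differentiation of E14 Tg(Nkx2-5-EmGFP) ES cells. These are a mouse embryonic stem cell line with a fluorescent reporter for the early cardiac gene Nkx2-5. The samples were 2 Isl1 ChIP replicates, pulled down with a monoclonal anti-Isl1 antibody, and 1 input of the same cells, all without a genetic or drug treatment. All cells derive from this single reporter line, and the labels mention no sorting of the CPCs before ChIP, so other cells of the culture could contribute. The list holds regions and no expression values, so the identity of the cells could not be checked with marker genes.

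Wnt ligands are secreted lipid-modified glycoproteins that bind Frizzled receptors. In the canonical branch, Frizzled acts with Lrp5 or Lrp6 to block a destruction complex of Axin, Apc and Gsk3b, so that β-catenin accumulates and activates genes with TCF/LEF factors. In the non-canonical branch, ligands such as Wnt5a and Wnt11 signal through Frizzled, Ror and Vangl proteins to orient cells, and both genes are needed to build the outflow tract. Canonical signalling promotes expansion of early cardiac progenitors and later has to fall for cardiomyocytes to form.

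Most Wnt pathway genes had an assigned Isl1 peak, and for most of these it lay at the promoter. A peak was assigned by the authors to the gene with the closest transcription start site (TSS). Of the 60 genes, 51 had at least 1 peak (85%, 95% Wilson interval 73.9 to 91.9), against 37.6% of all protein-coding genes. A peak with its midpoint within 1 kb of the TSS was assigned to 40 genes (66.7%, 54.1 to 77.3), against 23.3%. Of all 60 genes, 17 had 2 or more peaks (28.3%, 18.5 to 40.8), against 10.6%. A peak over 10 kb from its TSS was assigned to 19 genes (31.7%, 21.3 to 44.2), against 15.8%. The intervals cover counting only, since the genes were chosen by name and both replicates were combined before deposition. When the assignment was set aside and the window from 250 bp before to 50 bp after each annotated TSS was tested for overlap with any peak, 42 genes had such a promoter (70%, 57.5 to 80.1), against 25.7% of the protein-coding genes in that annotation.

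**Figure D1:**
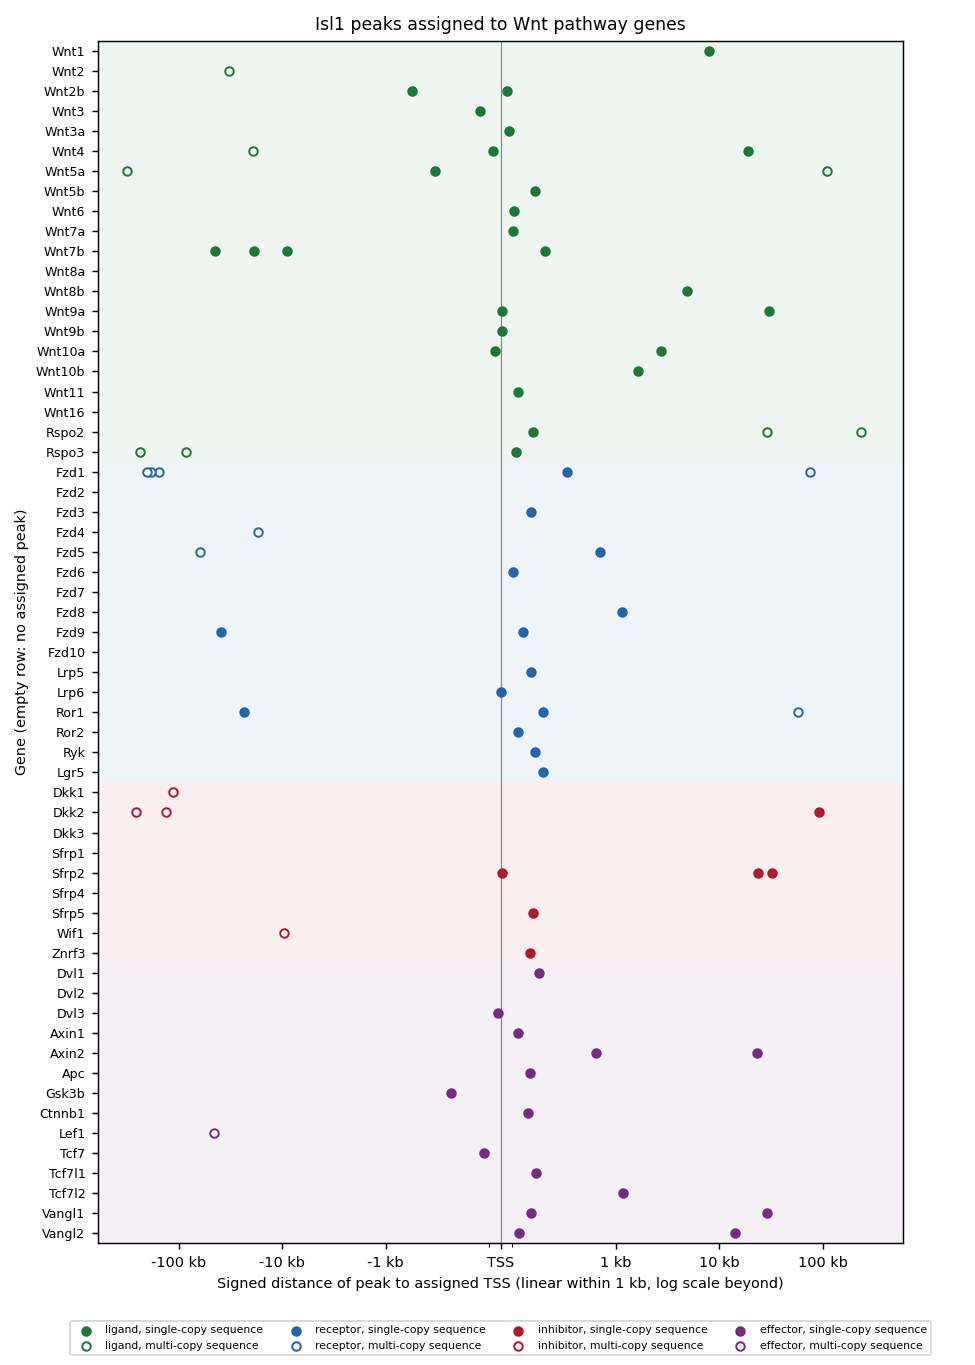
Each row is 1 Wnt pathway gene and each point 1 assigned Isl1 peak at its signed distance to the TSS, linear within 1 kb and logarithmic beyond. Colours give the 4 roles and open points mark multi-copy sequence. Rows without a point are the 9 genes without an assigned peak. The 41 points within 1 kb are all filled, and open points are seen mainly over 10 kb from the TSS.

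The sequence at these promoters is shown for the gene of each role whose single-copy peak lay closest to its TSS, and for Wnt5a and Wnt11, the pair of non-canonical ligands of the outflow tract. Each run of 120 bases lies inside the peak, leaves out annotated untranslated sequence, is read on the plus strand of mm9, and has its CpG pairs in capitals. The runs are from chr11:103611138-103611257 (Wnt9b, 18 CpG), chr6:134516984-134517103 (Lrp6, 25), chr3:83570121-83570240 (Sfrp2, 3), chr16:20516935-20517054 (Dvl3, 14), chr14:29317816-29317935 (Wnt5a, 6) and chr7:105987233-105987352 (Wnt11, 7).
Wnt9b: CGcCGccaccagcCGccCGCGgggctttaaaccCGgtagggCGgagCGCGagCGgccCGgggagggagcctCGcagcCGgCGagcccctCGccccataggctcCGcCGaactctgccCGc
Lrp6: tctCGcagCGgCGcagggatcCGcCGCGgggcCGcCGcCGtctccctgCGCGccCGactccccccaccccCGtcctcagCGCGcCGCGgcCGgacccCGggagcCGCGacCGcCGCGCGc
Sfrp2: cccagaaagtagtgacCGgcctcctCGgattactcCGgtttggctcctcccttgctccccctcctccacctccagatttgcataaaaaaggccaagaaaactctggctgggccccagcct
Dvl3: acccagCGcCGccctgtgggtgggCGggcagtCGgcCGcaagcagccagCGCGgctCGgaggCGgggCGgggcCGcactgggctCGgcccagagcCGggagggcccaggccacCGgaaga
Wnt5a: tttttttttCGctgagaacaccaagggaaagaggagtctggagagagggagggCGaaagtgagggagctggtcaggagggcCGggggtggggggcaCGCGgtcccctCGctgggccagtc
Wnt11: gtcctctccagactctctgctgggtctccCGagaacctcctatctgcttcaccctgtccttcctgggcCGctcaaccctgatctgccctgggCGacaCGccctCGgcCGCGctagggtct
The Lrp6 run is dense in CpG along its whole length, whereas the Sfrp2 run holds its few CpG pairs near the 5′ end and then turns pyrimidine-rich.

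Among the roles, effectors, ligands and receptors had promoter peaks more often than inhibitors, but the intervals of the 4 roles overlap. Of the effectors 13 of 14 had a peak (92.9%, 68.5 to 98.7) and 11 had it within 1 kb (78.6%, 52.4 to 92.4). Of the ligands 19 of 21 had a peak (90.5%, 71.1 to 97.3) and 15 had it within 1 kb (71.4%, 50.04 to 86.2). Receptors followed, with 13 of 16 genes (81.3%, 57.0 to 93.4) and 11 within 1 kb (68.8%, 44.4 to 85.8). Inhibitors had 6 of 9 genes with a peak (66.7%, 35.4 to 87.9) and 3 within 1 kb (33.3%, 12.1 to 64.6). By overlap of the promoter window with any peak, effectors had 12 of 14 (85.7%) and receptors 13 of 16 (81.3%). Ligands had 14 of 21 (66.7%) and inhibitors 3 of 9 (33.3%), so receptors ranked above ligands by this measure. The share within 1 kb was 23.3% over all protein-coding genes, which is inside the interval of the inhibitors. Their intervals also hold the shares of all genes for any assigned peak (37.6%) and for the promoter window (25.7%). The genes were chosen by name with earlier results of these data known, so no role was tested against these shares. Peaks over 10 kb away were spread evenly, over 7 ligands (33.3%), 5 receptors (31.3%), 3 inhibitors (33.3%) and 4 effectors (28.6%), against 15.8% of all protein-coding genes. That share lies inside the intervals of receptors, inhibitors and effectors and just below that of the ligands (17.2 to 54.6).

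**Figure D2:**
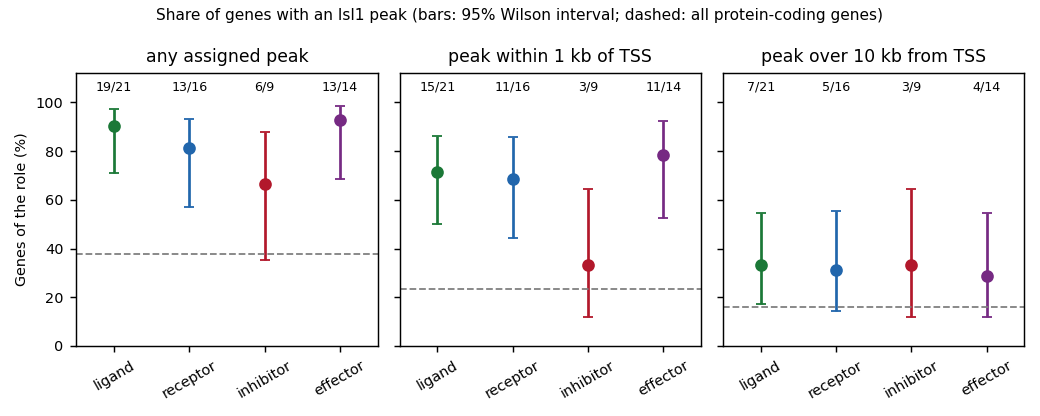
The y axis gives the percent of genes of each role with any assigned peak, with a peak within 1 kb and with a peak over 10 kb from the TSS. Points are shares, bars are 95% Wilson intervals, and the dashed lines mark all protein-coding genes (37.6, 23.3 and 15.8%). Inhibitors have the lowest share within 1 kb, 3 of 9, and every interval overlaps the others in its panel.

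Among the ligands, 17 of the 19 Wnt genes and both R-spondin genes had a peak. Wnt5a had 3 peaks, of which the middle one lay at the promoter. It spanned chr14:29317762-29318411 (649 bp, midpoint -573 bp from the TSS, where negative values are upstream) and was single-copy. This peak ended 248 bp before the assigned TSS, but its midpoint lay in an untranslated exon of a Wnt5a transcript and 150 bp from an annotated start. The other Wnt5a peaks lay at -316618 bp, in an intron of Erc2 (chr14:29001390-29002692, 1302 bp), and at 109260 bp in intergenic sequence (chr14:29433181-29434521, 1340 bp). Both consisted of sequence found many times in the genome, with a median of 806 and 2791 occurrences of the 31-base words in their central 200 bp. By this measure only the promoter peak of Wnt5a was made of single-copy sequence.

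Wnt11 had a single peak, over its promoter, at chr7:105987087-105987920 (833 bp, midpoint 148 bp downstream of the TSS, untranslated exon), and its sequence was single-copy. Wnt2, a ligand expressed in the early heart, had no promoter peak. Its only peak lay at -32946 bp, in an intron of the neighbouring gene Asz1 (chr6:18012914-18013868, 954 bp), and its words occurred a median of 2 times in the centre and 10 times over the whole peak. Of these 3 ligands with known cardiac roles, Wnt5a and Wnt11 thus had a single-copy peak within 1 kb and Wnt2 had none.

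Wnt4, a ligand known from kidney and gonad development, had the widest promoter peak of the ligands, 1759 bp at chr4:136832602-136834361 (-69 bp, untranslated exon, 85.5% GC in its centre). Flanking peaks lay at -19105 bp (chr4:136814066-136814825, median of 2 copies) and at 18986 bp (chr4:136852025-136853047), the latter over a coding exon of Wnt4 and single-copy. Wnt7b, a ligand of lung and placenta, had 4 peaks, more than any other ligand, and all were single-copy. They lay at 385 bp (chr15:85407693-85408538, untranslated exon), -9046 bp (chr15:85420944-85421651, intron of AU022754), -18904 bp (chr15:85430953-85431358) and -44250 bp (chr15:85456052-85456950). The outermost of these had 78.5% GC, as high as a typical promoter peak. Wnt9a had a promoter peak at 14 bp (chr11:59119867-59121026) and a narrow intergenic peak of 490 bp at 30295 bp (chr11:59150482-59150972). Wnt4, Wnt7b and Wnt9a were the ligands with a single-copy peak over 10 kb from the TSS.

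Wnt2b had a pair of adjacent peaks, at 56 bp (chr3:104764121-104765021, untranslated exon) and -768 bp (chr3:104765070-104765720), and is the gene whose peaks merge if regions under 1 kb apart are joined. Wnt10a, a ligand of tooth and skin appendages, had a promoter peak at -52 bp (chr1:74838141-74838941) and an intronic peak at 2733 bp (chr1:74841039-74841614). The remaining Wnt genes with a promoter peak had, like Wnt11, no other peak. These were Wnt3 at -178 bp (chr11:103634754-103635868), Wnt3a at 75 bp (chr11:59103667-59104690) and Wnt5b at 297 bp (chr6:119493442-119494694). To them belong also Wnt6 at 118 bp (chr1:74818139-74819029), Wnt7a at 106 bp (chr6:91360672-91361843) and Wnt9b at 10 bp (chr11:103610731-103611520). All had single-copy centres, and all but Wnt3, which was intergenic at its midpoint, lay over an untranslated exon of the gene. Wnt1, Wnt8b and Wnt10b had their only peak between 1 and 10 kb downstream of the assigned TSS, at 7876, 4840 and 1656 bp. Wnt8a and Wnt16 had none.

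The R-spondins are secreted proteins that raise the level of Frizzled at the membrane, and both genes had 3 peaks, 1 at the promoter and 2 far away. For Rspo2 the promoter peak lay at 277 bp (chr15:43001710-43002464) and the others at 29151 bp, in its own intron (chr15:42972553-42973874), and 232691 bp (chr15:42769167-42770179). For Rspo3 they lay at 131 bp (chr10:29255311-29255774), -83984 bp (chr10:29339021-29340294) and -238082 bp (chr10:29493335-29494176). The promoter peaks were single-copy and the 4 far peaks had medians between 241 and 2698.5 copies. A single-copy promoter peak with only multi-copy far peaks was therefore seen at 3 ligands, Wnt5a, Rspo2 and Rspo3.

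Some Wnt genes are neighbours on the chromosome, and their peaks were separate. The TSSs of Wnt1 and Wnt10b lie 11707 bp apart, those of Wnt3a and Wnt9a 16176 bp, those of Wnt6 and Wnt10a 19624 bp and those of Wnt3 and Wnt9b 24329 bp. In the latter 3 pairs both genes had their own promoter peak. In the pair of Wnt1 and Wnt10b neither peak was within 1 kb of the assigned TSS, although the Wnt10b peak lay 767 bp from another annotated start of that gene.

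Receptor genes had the widest promoter peaks. The median width within 1 kb was 1289 bp for 11 receptor peaks, 1197 bp for 11 effector peaks, 1118 bp for 3 inhibitor peaks and 867.5 bp for 16 ligand peaks, against 1050 bp for all 5416 such peaks. The receptor peaks reached a median of 366 bp upstream and 883 bp downstream of the TSS, and the ligand peaks 415.5 bp upstream and 564 bp downstream, against 365 and 671 bp over all promoter peaks. Ligand promoter peaks ranged from 463 to 1759 bp, receptor peaks from 780 to 2481 bp and effector peaks from 723 to 2312 bp, so single peaks of the roles overlapped widely. The additional median width of the receptor peaks was thus on the transcribed side. The inhibitor peaks reached a median of 490 bp upstream and 826 bp downstream, and the effector peaks 377 and 716 bp. All 11 receptor peaks and all 3 inhibitor peaks had their midpoint downstream of the TSS, against 80.9% of all promoter peaks. The difference was not tested, since the list gives no replicate values.

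**Figure D3:**
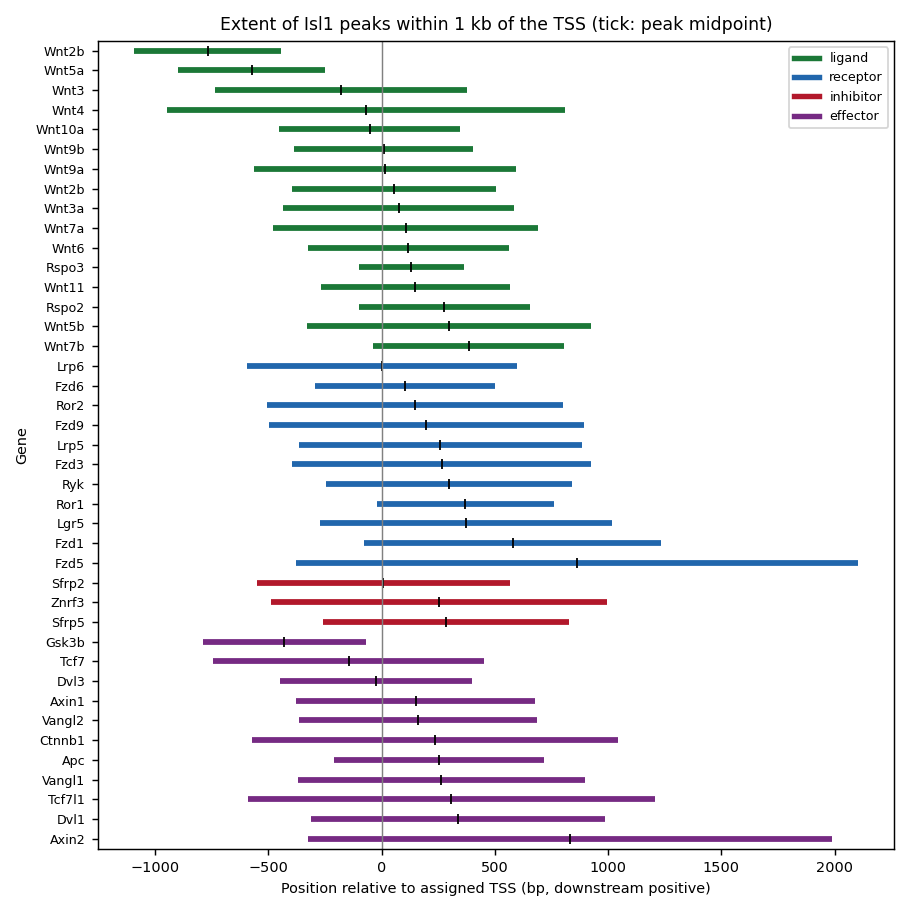
Horizontal bars show the extent of each of the 41 promoter peaks along the x axis, in bp from the assigned TSS with downstream positive, and ticks mark midpoints. Of these peaks 38 span the TSS, and those that do not belong to Wnt2b, Wnt5a and Gsk3b. Fzd5 and Axin2 have the longest bars, 2481 and 2312 bp, which extend furthest downstream.

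Frizzled genes encode the membrane receptors of Wnt ligands, and 7 of 10 had a peak. The Fzd5 promoter peak, at 864 bp (chr1:64782220-64784701, intron), was the widest of all member peaks with 2481 bp. Its centre had a GC content of 50%, the lowest of the promoter peaks, against a mean of 74.3% ± 6.50 (SD, n = 41 peaks). Fzd5 had a further wide peak of 2222 bp at -61677 bp, in an intron of Plekhm3 (chr1:64844890-64847112), with a median of 37 copies. Fzd1 had 5 peaks, the most of any Wnt pathway gene. Its promoter peak lay at 578 bp (chr5:4756984-4758293, untranslated exon) and was single-copy. The others lay at 74966 bp (chr5:4682965-4683535) and, in introns of Cdk14, at -155206 bp (chr5:4913113-4913731), -185416 bp (chr5:4943196-4944068) and -199683 bp (chr5:4957523-4958275). These 4 were all multi-copy by the 31-base words of their centres, with medians from 11 to 1755. With words of 75 bases only the peak at 74966 bp was, with a median of 3. Over the whole peak the medians of 31-base words were 22.5 at 74966 bp, 5 at -155206 bp, 547 at -185416 bp and 1 at -199683 bp.

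Fzd9 had a promoter peak at 197 bp over its coding exon (chr5:135726025-135727416) and a single-copy intergenic peak at -38868 bp (chr5:135765357-135766214). Fzd3, which acts in axon guidance, had its peak at 265 bp (chr14:65880374-65881696, intron) and Fzd6, a receptor of planar polarity, at 104 bp (chr15:38837586-38838380, untranslated exon). Fzd8 is an intronless gene, and its 2264 bp peak lay at 1139 bp over the coding exon, just outside the limit of 1 kb. Fzd4, a receptor of the retinal vasculature, had only a peak at -17165 bp, in an intron of Tmem135. Its 31-base words had a median of 89.5 copies in the centre and 1 over the whole peak. Fzd2, Fzd7 and Fzd10 had no assigned peak. For Fzd10 this was a matter of assignment, as a 1378 bp peak lay with its midpoint 15 bp from the Fzd10 start and was assigned to 5930412G12Rik. The distance at Fzd2 was 48354 bp and at Fzd7 188238 bp, so for these genes no peak of any assignment was near.

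The co-receptors Lrp5 and Lrp6, which pair with Frizzled in the canonical branch, both had a single promoter peak. It lay at 259 bp for Lrp5 (chr19:3685681-3686930, 1249 bp, intron) and at 3 bp for Lrp6 (chr6:134516332-134517524, 1192 bp, untranslated exon). Ror1, Ror2 and Ryk are receptors of the non-canonical branch, and all had a promoter peak. Ror2, a receptor of Wnt5a, had it at 148 bp (chr13:53380676-53381984) and Ryk at 297 bp over a coding exon (chr9:102737004-102738091). Ror1 had it at 369 bp (chr4:99768375-99769155) and had a single-copy peak at -23142 bp (chr4:99745081-99745428, 347 bp) and an intronic peak at 57625 bp (chr4:99825729-99826314, median of 8 copies). Lgr5, the receptor of R-spondins and a marker of intestinal stem cells, had a peak at 371 bp over a coding exon (chr10:115023821-115025110). All receptor genes outside the Frizzled family thus had a peak within 1 kb.

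Of the 9 inhibitors, 3 had a promoter peak, 3 had more distant peaks only and 3 had no assigned peak. Sfrp2, a secreted protein that binds Wnt ligands, had a promoter peak at 7 bp (chr3:83569691-83570809, 1118 bp) and narrow single-copy peaks at 23564 bp (chr3:83593559-83594055, 496 bp, exon of the non-coding gene Gm16790) and 32021 bp (chr3:83602117-83602412, 295 bp). The last was the narrowest of all member peaks. Sfrp5, a related gene of the foregut and venous pole, had its peak at 284 bp (chr19:42275916-42277000) and Znrf3, a ubiquitin ligase that removes Frizzled, at 252 bp (chr11:5343856-5345340), both over coding exons. None of the Dickkopf genes, some of whose products block Lrp5 and Lrp6, had a promoter peak. Dkk2 had 3 far peaks, at -259387 bp (chr3:131487877-131489862, median of 6 copies), -133785 bp (chr3:131613876-131615067, 3254 copies) and 91270 bp (chr3:131839353-131839700, single-copy, in its own intron). Dkk1 had 1 multi-copy peak at -112136 bp in an intron of Prkg1, while a closer peak, 9939 bp from its start and with a median of 2 copies, was assigned to Ppp1r2-ps3. Wif1, which binds Wnt ligands, had 1 at -9662 bp with a median of 31 copies in the centre and 1 over the whole peak. Dkk3, Sfrp1 and Sfrp4 had no assigned peak, and the closest peak of any assignment was 121768 to 307840 bp from their starts. Without the peaks that were multi-copy by words of 31 bases, 4 of 9 inhibitors kept a peak.

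Of the effectors, all 4 genes of the destruction complex had a promoter peak. Axin2, a scaffold of that complex and a widely used target gene of canonical signalling, had one of 2312 bp at 831 bp (chr11:108781338-108783650). Its other peak, at 23232 bp (chr11:108804510-108805280, intron), lay 40 bp from an alternative annotated start of Axin2 and had a GC content of 45%. Axin1 had its peak at 150 bp (chr17:26275254-26276308, untranslated exon), Apc at 253 bp (coding exon) and Gsk3b at -429 bp (chr16:38088297-38089020, intergenic). Ctnnb1, the gene of β-catenin, had a 1615 bp peak at 234 bp (chr9:120842123-120843738, intron) with 85.5% GC in its centre, which equals Wnt4 as the highest value of all member peaks. Together with Lrp5 and Lrp6, promoter peaks were thus present at every listed gene between the co-receptors and β-catenin except Dvl2.

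Dishevelled proteins relay the signal of Frizzled, and Dvl1 had a peak at 336 bp (chr4:155221112-155222413, 1301 bp) and Dvl3 at -26 bp (chr16:20516687-20517535, 848 bp). Dvl2 was the only effector without an assigned peak. Its territory, the stretch closer to its starts than to those of any other protein-coding gene, is the smallest of the 60 genes at 10.1 kb, and the closest peak, 3658 bp away, was assigned to Phf23. All 4 TCF/LEF genes, which encode the DNA-binding partners of β-catenin, had 1 peak. It lay over coding exons at -145 bp for Tcf7 (chr11:52096063-52097260, 1197 bp) and 308 bp for Tcf7l1 (chr6:72737833-72739630, 1797 bp). For Tcf7l2 it lay at 1163 bp from the assigned TSS but 128 bp from another annotated start. Lef1 had no promoter peak, only a peak at -46010 bp. It was multi-copy by the 31-base words of its centre (median of 723), but their median over the whole peak was 1. Vangl1 and Vangl2, membrane proteins of planar cell polarity, both had a promoter peak and a single-copy intronic peak. The former lay at 263 bp (chr3:102007720-102008987) and 160 bp (chr1:173956739-173957793), and the latter at 29018 bp (chr3:101979330-101979867) and 14215 bp (chr1:173942973-173943450).

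The Axin2 promoter peak was the one member peak whose central 200 bp held a string of the TCF/LEF type, searched as ATCAAAG or TTCAAAG on either strand. The pair of strings lies at chr11:108782546-108782572 in an intron, and is printed on the plus strand of mm9 with the strings in capitals, where both appear as their reverse complement.
Axin2: CTTTGATgtgcggggcggcgCTTTGAA
Over the whole 2312 bp the Axin2 peak held 4 such strings. Only 2 of all 14082 peaks held at least as many, Axin2 included, and no other member peak held more than 1. The count was not scaled to width, and the median width of all peaks was 947 bp. In peak centres these strings were rare among the members and over the whole list. They were found in 1 of 80 centres (1.25%), against 125 of all 14082 (0.888%). In whole peaks they were found in 4 of 80 (5%), those of Axin2, Lrp6, Tcf7 and the Rspo2 peak at 29151 bp, against 11.2% of all peaks. Within 1 kb of the TSS it was 3 of 41 (7.32%) against 11.3%, and over 10 kb 1 of 31 (3.23%) against 11.1%. The differences were not tested. Strings of the Isl1 type, CTAATTG or CTAATGG on either strand, were in 0 of 80 centres, against 58 of all (0.412%). Whole peaks with such a string were those of Wnt3 and Znrf3 (2 of 80, 2.5%), against 5.00% of all. Both lay within 1 kb of the TSS, where it was 2 of 41 (4.88%) against 5.15%. A string is a match of letters and does not show binding of a factor.

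The distances of the peaks of Wnt pathway genes to their TSS depended, relative to the whole list, on whether multi-copy peaks were counted. Of the 80 peaks, 41 were within 1 kb (51.3%, 40.5 to 61.9), 8 between 1 and 10 kb, and 31 over 10 kb from the TSS (38.8%), against 38.5% and 51.1% of all peaks within 1 kb and over 10 kb. Among single-copy peaks the shares were close, with 68.3% of 60 member peaks against 70.0% of all 7536 within 1 kb, and 20% against 17.97% over 10 kb. The promoter peaks had a mean GC content of 74.3% ± 6.50 in their centres, against 73.7% ± 5.88 (SD over 5416 peaks). Their median ratio of observed to expected CpG was 0.933, against 0.929. The midpoint was downstream of the TSS in 33 of 41 (80.5%), against 80.9%, and 38 spanned the TSS (92.7%), against 94.6%. The median width over all distances was 939.5 bp, with quartiles of 719 and 1268.5 bp, against 947 bp with quartiles of 717 and 1243 bp. At promoters, the position and base composition of the member peaks thus had values close to those of all promoter peaks.

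The midpoints of the 41 promoter peaks lay over an untranslated exon in 25, a coding exon in 8, an intron in 5 and intergenic sequence in 3. Of the 31 peaks over 10 kb away, 15 were intergenic, 14 intronic, and 1 each lay over a coding and a non-coding exon. These features were not counted over all peaks of the list, so the counts do not show a trait of Wnt pathway genes. These far peaks had a mean GC content of 59.7% ± 7.70 (SD, n = 31), against 61.6% ± 7.88 for all 7193 such peaks.

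Multi-copy sequence was frequent in the far peaks of the members and absent from their promoter peaks. A peak was counted as multi-copy when the 31-base words of its central 200 bp had a median of at least 2 occurrences in the genome. Of the 41 promoter peaks 0 were multi-copy, with an upper limit of 8.57%, against 2.62% of all promoter peaks. Of the 31 far peaks 19 were multi-copy (61.3%, 43.8 to 76.3), against 81.2% of all far peaks. Over all distances the share was 20 of 80 (25%, 16.8 to 35.5), against 46.5%. By role it was 8 of 33 ligand peaks, 7 of 21 receptor peaks, 4 of 10 inhibitor peaks and 1 of 16 effector peaks. Wnt2, Fzd4, Dkk1, Wif1 and Lef1 had multi-copy peaks only, and all other 46 genes with a peak kept at least 1 single-copy peak. With words of 75 bases, only Dkk1 of these 5 genes had no single-copy peak, and 10 of the 31 far peaks were multi-copy (32.3%), against 51.4% of all far peaks. Over the whole peak, the median of 31-base words was 1 for Fzd4, Wif1 and Lef1, 10 for Wnt2 and 1090.5 for Dkk1. How the reads at repeated sequence were placed was not tested.

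**Figure D4:**
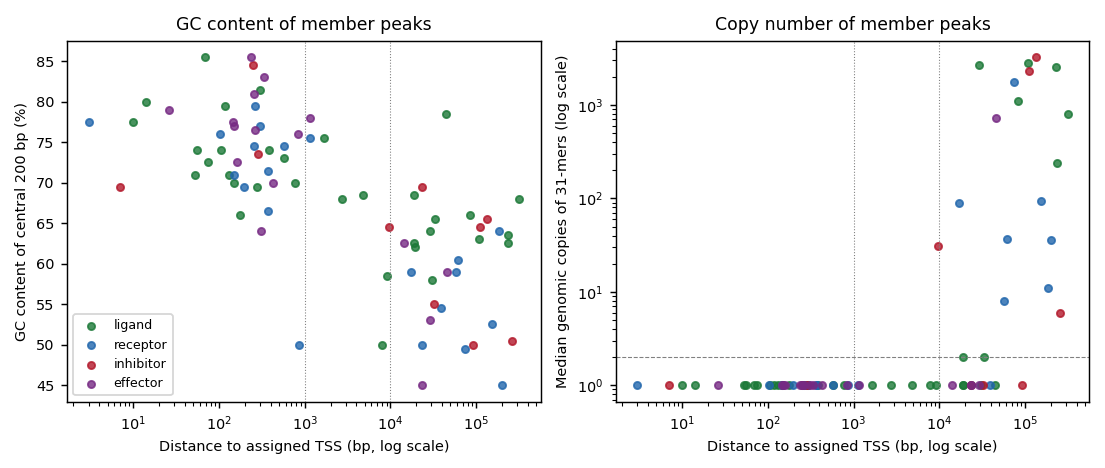
The x axes give the distance of each member peak to its TSS in bp on a log scale, and the y axes give the GC content of the central 200 bp in percent (left) and the median genomic copies of its 31-base words on a log scale (right). Promoter peaks average 74.3% GC and sit at 1 copy, while far peaks average 59.7% GC and reach 3254 copies. The dashed line marks the limit of 2 copies.

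Several far peaks of different Wnt pathway genes shared long runs of sequence. The Wnt2 peak at -32946 bp and the Wnt5a peak at -316618 bp, on different chromosomes, shared 152 of their 31-base words (20.4% of the smaller set). The Wnt5a peak at 109260 bp and the Rspo2 peak at 232691 bp shared 507 (60.9%). The Rspo2 peak at 29151 bp and the Dkk2 peak at -133785 bp shared 465 (50.3%). These pairs are shown as runs of 140 bases of mm9 with the longest shared run in capitals. The shared run is 97 bases for the pair of Wnt2 (chr6:18013556-18013695, plus strand) and Wnt5a (chr14:29001560-29001699, minus strand).
Wnt2 at -32946 bp: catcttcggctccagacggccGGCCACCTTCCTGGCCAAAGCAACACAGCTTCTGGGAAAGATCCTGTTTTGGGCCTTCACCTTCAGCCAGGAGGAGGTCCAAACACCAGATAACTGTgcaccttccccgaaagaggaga
Wnt5a at -316618 bp: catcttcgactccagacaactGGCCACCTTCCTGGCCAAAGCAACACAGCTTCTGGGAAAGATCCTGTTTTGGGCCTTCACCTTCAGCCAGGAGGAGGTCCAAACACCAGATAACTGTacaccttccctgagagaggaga
For Wnt5a (chr14:29433274-29433413, plus strand) and Rspo2 (chr15:42769167-42769306, plus strand) it is 322 bases, and the window printed lies within it.
Wnt5a at 109260 bp: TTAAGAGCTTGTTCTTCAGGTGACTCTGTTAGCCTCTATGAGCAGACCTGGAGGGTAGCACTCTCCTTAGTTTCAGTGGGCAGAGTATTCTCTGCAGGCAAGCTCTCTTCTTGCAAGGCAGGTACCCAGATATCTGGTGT
Rspo2 at 232691 bp: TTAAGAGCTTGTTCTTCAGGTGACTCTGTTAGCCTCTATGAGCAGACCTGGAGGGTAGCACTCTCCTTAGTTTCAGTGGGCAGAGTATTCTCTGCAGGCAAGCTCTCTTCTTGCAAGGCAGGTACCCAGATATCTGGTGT
The run shared by Rspo2 (chr15:42973592-42973731, plus strand) and Dkk2 (chr3:131614124-131614263, minus strand) is 283 bases and likewise fills the window.
Rspo2 at 29151 bp: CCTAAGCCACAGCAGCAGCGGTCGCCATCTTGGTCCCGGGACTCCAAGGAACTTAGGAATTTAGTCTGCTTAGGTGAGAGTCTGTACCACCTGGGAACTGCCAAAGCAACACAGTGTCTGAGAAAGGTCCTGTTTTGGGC
Dkk2 at -133785 bp: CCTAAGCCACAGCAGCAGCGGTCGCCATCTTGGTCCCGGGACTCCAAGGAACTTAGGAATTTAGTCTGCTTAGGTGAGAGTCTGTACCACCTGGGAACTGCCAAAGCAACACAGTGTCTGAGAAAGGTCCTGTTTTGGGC
Inside the first pair the runs differ in several bases outside the capitals, while in the others no base of the window differs. The last pair belonged to a group of 6 member peaks linked by shared words, at Rspo2, Rspo3 (both far peaks), Fzd1, Dkk1 and Dkk2. Words of this group were also found in 1979 of the 7162 other peaks over 10 kb from a TSS (27.6%) and in 1 peak within 1 kb. Another 6 member peaks, at Fzd1 (74966 and -199683 bp), Ror1, Dkk2 (-259387 bp), Wif1 and Lef1, were linked by 2 to 17 shared words per pair, which were also in 19.1% of the other far peaks and in 38 peaks within 1 kb. The peaks of Fzd1 at -155206 bp and Fzd4 shared 5 words, found in 5.17% of the other far peaks and in 16 peaks within 1 kb. Words of the pair of Wnt5a and Rspo2 were in 12.9% of those far peaks, and words of the pair of Wnt2 and Wnt5a in 7.12%. Words of these groups were thus also found in far peaks assigned to other genes.

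Wnt pathway genes had wide territories. These are drawn from start sites and need not hold the whole gene. A peak is assigned to a gene only inside its territory as the authors' annotation draws it. The median territory was 116 kb for the members, against 45.7 kb for all protein-coding genes, and 45 of the 60 exceeded that median. It was 86.8 kb for the 9 genes without a peak, 114 kb for the 34 genes with 1 peak and 208 kb for the 19 genes with a peak over 10 kb away. Wnt5a had the widest territory, 574 kb. The members had 1.33 assigned peaks each, against 0.559 over all genes, but those with at least 1 peak had 1.57, against 1.49. The part of territory in the number of peaks was not tested.

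**Figure D5:**
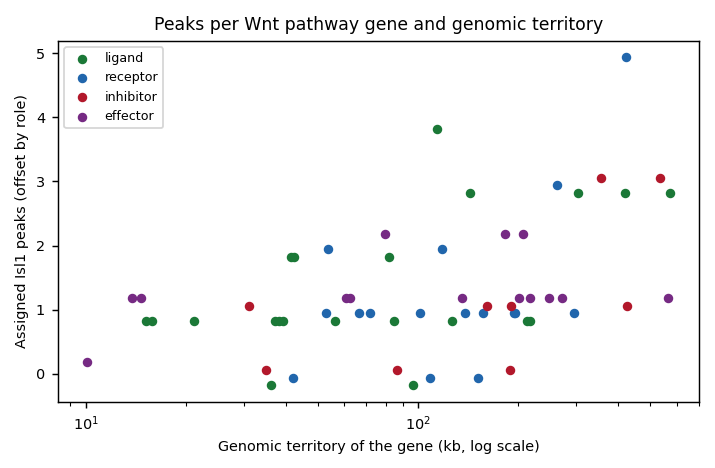
The x axis gives the territory of each of the 60 genes in kb on a log scale and the y axis its number of assigned peaks, with small vertical offsets between roles. Genes with 3 to 5 peaks have territories of over 100 kb, from Wnt7b (114 kb) to Wnt5a (574 kb), and Dvl2, without a peak, has the smallest (10.1 kb).

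Further genes of the pathway, 55 regulators of ligand secretion, receptor turnover, polarity and transcription, had peaks at intermediate frequency. Of these 36 had a peak (65.5%, 52.3 to 76.6), 31 had one within 1 kb (56.4%, 43.3 to 68.6) and 12 had 2 or more (21.8%). The widest promoter peaks were those of Tle3 (2226 bp), Celsr1 (1889 bp), Notum (1772 bp), Tle1 (1660 bp) and Rspo1 (1395 bp). Tle3 and Tle1 encode corepressors of TCF/LEF factors, Celsr1 a polarity cadherin and Notum an enzyme that inactivates Wnt ligands. The next were Pygo1 (1365 bp), Csnk1d (1339 bp), Dact1 (1307 bp), Ptk7 (1271 bp) and Csnk1a1 (1250 bp). Pygo1 is a coactivator of β-catenin, Csnk1d and Csnk1a1 are casein kinases, Dact1 binds Dishevelled and Ptk7 is a receptor of planar polarity. Promoter peaks were thus also present at many pathway genes outside the 60, in 56.4% against 23.3% of all protein-coding genes. These genes too were chosen by name with earlier results of these data known, so the difference was not tested.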

How the data were processed

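Isl1 ChIP-Seq of 2 replicates and 1 input was grouped by the sample titles. Per the study's methods and the submitters' notes, the authors aligned reads to mm9 with bowtie2, removed duplicates with Picard 1.136, called peaks with MACS14, dropped blacklisted regions, kept areas common to both replicates with bedtools 2.15, and assigned each peak to the closest TSS with HOMER. The deposited list of regions, used here, gives positions, the signed distance in bp, a RefSeq accession and a symbol, with 0 columns of other samples. It holds no score or read number, so depth is unknown, a region without a peak is not shown to be unbound, and no replicate error or test is available. Whether starts count from 0 or 1 is not stated.

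Identical lines were counted as 1 (14082 of 14165 lines). Shares carry 95% Wilson intervals (scipy 1.17.1), for counting error only, beside the same count over protein-coding genes of a RefSeq table of GRCm38, used for names and class only. Sequence and annotation came from NCBI m37 (mm9) and GENCODE; 43 of 80 distances were within 2 bp of this annotation, so the authors' annotation was a different one. Copy number counted 31-base words on both strands over the genome, checked against a direct count on simulated sequence. All 60 genes, the 55 further genes and the strings were chosen with earlier results of these data known. Every gene with a peak was named with its distance, with coordinates for those with a peak within 1 kb (except Apc) or several peaks and for Wnt2, Wnt5a and Wnt11; further genes were named for the 10 widest promoter peaks. The closest peaks of Dkk1, Fzd2, Fzd7, Fzd10, Dvl2 and the inhibitors without a peak, the words shared between peaks, the far peaks counted with words of 75 bases, the count of strings at Axin2 and the background of genes with an NM accession were added after the data were seen. Printed runs leave out untranslated exons.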

Additional observations from a re-analysis of the deposited data

How the results depend on the processing

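Of 64 alternatives over 18 results, 59 stayed within the limit set for a change (1.5 times for counts) and 5 moved. Genes with an assigned peak numbered 17 rather than 51 when at least 2 peaks were required, and assigned peaks numbered 49 rather than 80 when limited to 10 kb of the TSS. The multi-copy share was 12.5% rather than 25% with words of 75 bases. Strings were found in more peaks when the whole peak was searched, in 4 rather than 1 for the TCF/LEF type and in 2 rather than 0 for the Isl1 type. Under the other alternatives for genes with a peak the number ranged from 46, with single-copy peaks only or within 10 kb, to 50. Genes with a peak within 1 kb numbered 36 with a limit of 500 bp and 43 with a limit of 2 kb. In a background chosen after seeing the data, protein-coding genes with an NM accession, 39.1% had a peak and 24.2% had one within 1 kb. No paired analysis was possible because the input carries no replicate number that could match it to a ChIP sample, and no groups were tested against each other. Calls without either replicate could not be made from a list of areas common to the pair. With no read numbers, strength of binding cannot be compared between genes.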
